A study of Mus musculus with 4 samples.

Results

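The genes described are 10 members of the TGF-beta and BMP signalling pathway: the ligands Tgfb1, Tgfb2 and Tgfb3, their receptors Tgfbr1, Tgfbr2 and Tgfbr3, the BMP ligands Bmp4 and Bmp7, the BMP antagonist Grem1 and the inhibitory Smad gene Smad7. Every probe set whose platform annotation gives 1 of these symbols and no other was taken, which gave 22 probe sets for the 10 genes, out of 45101 probe sets and 18193 named genes on the array. Eye tissue of transgenic mice in which myocilin, a secreted glycoprotein, was expressed in the aqueous humor was measured on 2 arrays and compared with eye tissue of control mice on 2 arrays. Both groups carry the label retina, and the labels ask what a high level of myocilin around the retina does. Because the labels describe control array 2 as a technical repeat of control array 1, the control group counts as 1 sample measured on 2 arrays. The transgenic arrays were taken as 2 samples, although no label says that they came from separate animals; the p-values reflect the spread of these arrays alone, and part or all of it may be technical. Strain, age, sex, the promoter of the transgene and any agent given to either group are not stated in the labels, and the level of the transgene was not analysed here.

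TGF-beta ligands are secreted in a latent form and, once released, bind the type II receptor encoded by Tgfbr2, which activates the type I receptor encoded by Tgfbr1 and through it the Smad2 and Smad3 transcription factors. BMP ligands use related receptors and act through Smad1, Smad5 and Smad9, with the Id genes among their direct targets, while secreted proteins such as gremlin bind BMPs and keep them from their receptors. In the eye, TGF-beta2 is a known component of the aqueous humor, and the balance between TGF-beta and BMP signals is studied in the trabecular meshwork, the tissue that drains the aqueous humor.

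Promoter sequences are shown for 3 genes of the BMP branch whose signals were higher on both transgenic arrays, a ligand (Bmp4), an antagonist (Grem1) and a target (Id3), chosen after their values were seen. Each is the 250 bases before the start of the gene, 5′ to 3′ on the strand of the gene, from RefSeq on build GRCm38.p6. The reference table held a promoter for 6 of the 10 genes. Capitals mark 2 motifs bound by Smad proteins. The Smad box CAGAC was searched with its form on the other strand, GTCTG, and the GC-rich motif GGCGCC reads the same on both strands. The motifs do not overlap in these windows.
Bmp4, chr14:46390670-46390919, minus strand: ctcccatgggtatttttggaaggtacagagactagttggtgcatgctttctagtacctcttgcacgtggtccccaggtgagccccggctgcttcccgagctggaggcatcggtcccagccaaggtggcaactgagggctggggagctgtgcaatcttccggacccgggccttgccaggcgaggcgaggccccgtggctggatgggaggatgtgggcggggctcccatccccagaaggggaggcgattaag
Grem1, chr2:113758649-113758898, minus strand: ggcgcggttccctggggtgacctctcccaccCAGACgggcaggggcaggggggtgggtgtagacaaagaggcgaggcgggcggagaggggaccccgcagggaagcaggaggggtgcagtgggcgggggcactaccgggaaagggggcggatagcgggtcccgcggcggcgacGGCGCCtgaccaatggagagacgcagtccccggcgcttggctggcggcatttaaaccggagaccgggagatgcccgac
Id3, chr4:136143572-136143821, plus strand: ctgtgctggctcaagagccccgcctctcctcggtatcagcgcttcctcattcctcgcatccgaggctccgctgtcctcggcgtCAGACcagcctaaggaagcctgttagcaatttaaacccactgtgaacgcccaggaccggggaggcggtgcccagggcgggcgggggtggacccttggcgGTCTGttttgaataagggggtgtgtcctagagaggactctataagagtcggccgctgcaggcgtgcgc
The Grem1 window held 1 CAGAC and 1 GGCGCC, the Id3 window 2 matches to CAGAC and none to GGCGCC, and the Bmp4 window neither. Of all 32851 promoter windows of this length, 42.2% held CAGAC and 9.6% held GGCGCC. These matches describe letters only, since the arrays measured RNA and not the binding of any factor.

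The deposited signals are linear intensities, 1 per probe set and array. Their mean after trimming 2% at each end was 150 on each of the 4 arrays, and precision is limited by how few arrays there are. The label retina was set against marker genes. Of 5 rod photoreceptor markers with a probe set, only Sag passed the filter on dim probe sets, at 120 ± 20.4 in transgenic samples (SD, n = 2) and 148 in the control sample, while Gnat1, Pde6b, Nrl and Rcvrn lay under it. Marker genes of the corneal epithelium, the pigmented layers, connective tissue and muscle passed it. So did all 5 markers of Mueller glia, a cell type of the retina, although Rlbp1 among them is also in the pigment epithelium list. Passing the filter does not by itself show that retinal glia were present. The tissue measured is therefore called eye tissue below. Array brightness differs between probe sets, and no gene is ranked against another by its signal.

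None of the 10 genes passed the test for a difference between transgenic and control eye tissue. Of the 22 probe sets, 20 exceeded a signal of about 30.0 on average and were tested, and 0 of 20 were called at an adjusted p under 0.05 in limma, against 0.0777% of all 27022 probe sets tested. The adjusted p of the 20 ran from 0.534 to 0.996. At an unadjusted p under 0.05, 1 was higher, that of Bmp4, and 0 were lower, against 4.14% and 2.92% of all probe sets tested. Changes are log2 differences of signal + 16, transgenic minus control, which understate the change of dim probe sets. They ran from −0.25 for Tgfb1 to 0.59 for a probe set of Bmp7, with standard errors between 0.11 and 0.29. The median over the 20 was 0.15, and 12 were above 0, beside a median of −0.02 over all probe sets tested. With 1 probe set per gene, the brightest, the median was 0.07 and 5 of 10 genes were above 0.

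**Figure D1:**
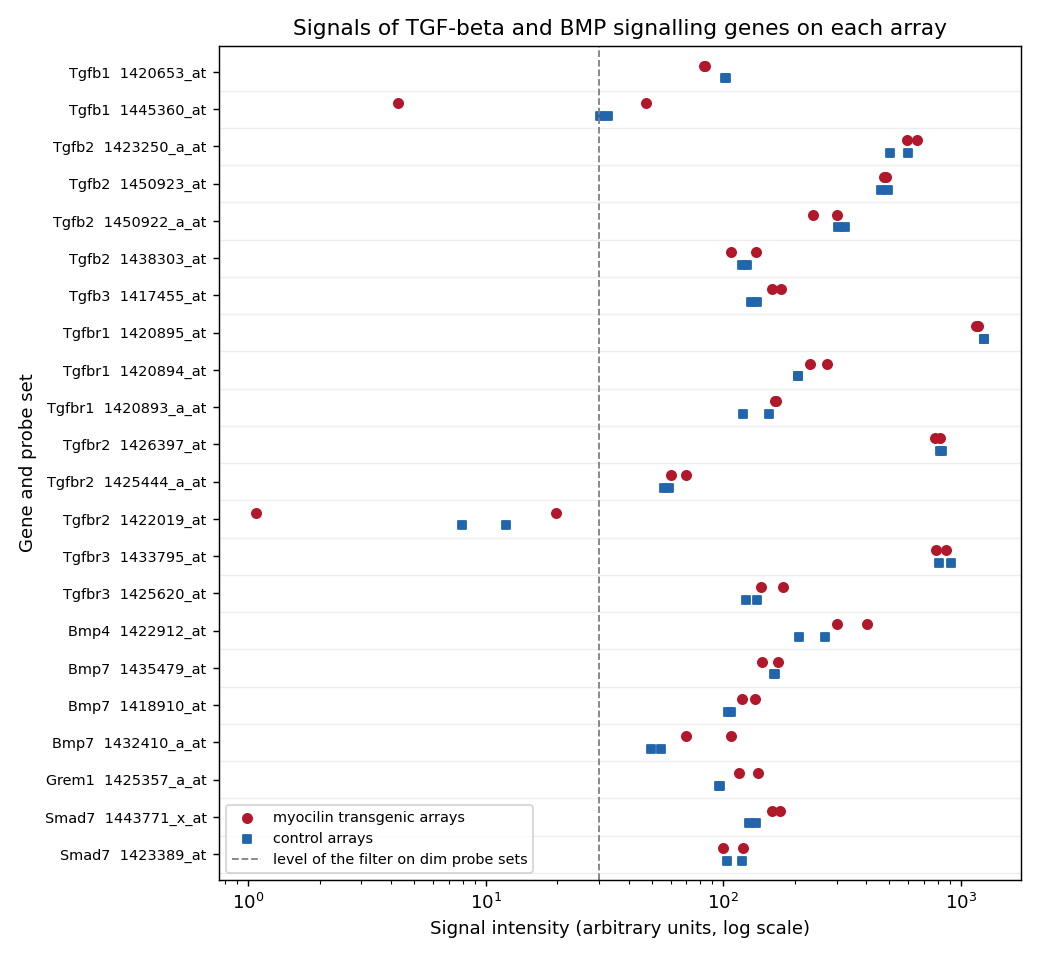
Signal intensity (log axis, arbitrary units) of each of the 22 probe sets on the 2 transgenic arrays (circles) and the 2 control arrays (squares); the dashed line is the filter level of about 30.0. Circles lie to the right of both squares for 10 of the 20 tested probe sets and to the left for 3, and both probe sets with points left of the line spread most between the transgenic arrays.

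On 10 of the 20 tested probe sets (50%) both transgenic arrays lay above both control arrays, compared with 21.1% of all probe sets tested, and on 3 (15%) both lay below, compared with 23.6%. Several of the 10 share a gene and so are not separate observations: with 1 probe set per gene, the brightest, 4 genes had both transgenic arrays above, namely Tgfb3, Bmp4, Grem1 and Smad7, 2 had both below, Tgfb1 and Tgfbr1, and 4 overlapped. The median log2 gap within a pair was 0.17 for the transgenic arrays and 0.08 for the control arrays over these probe sets, and 0.17 and 0.15 in the same order over all probe sets tested. The change exceeded the gaps within both pairs for 9 of 20 probe sets (45%), compared with 32.2% of all probe sets tested.

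**Figure D2:**
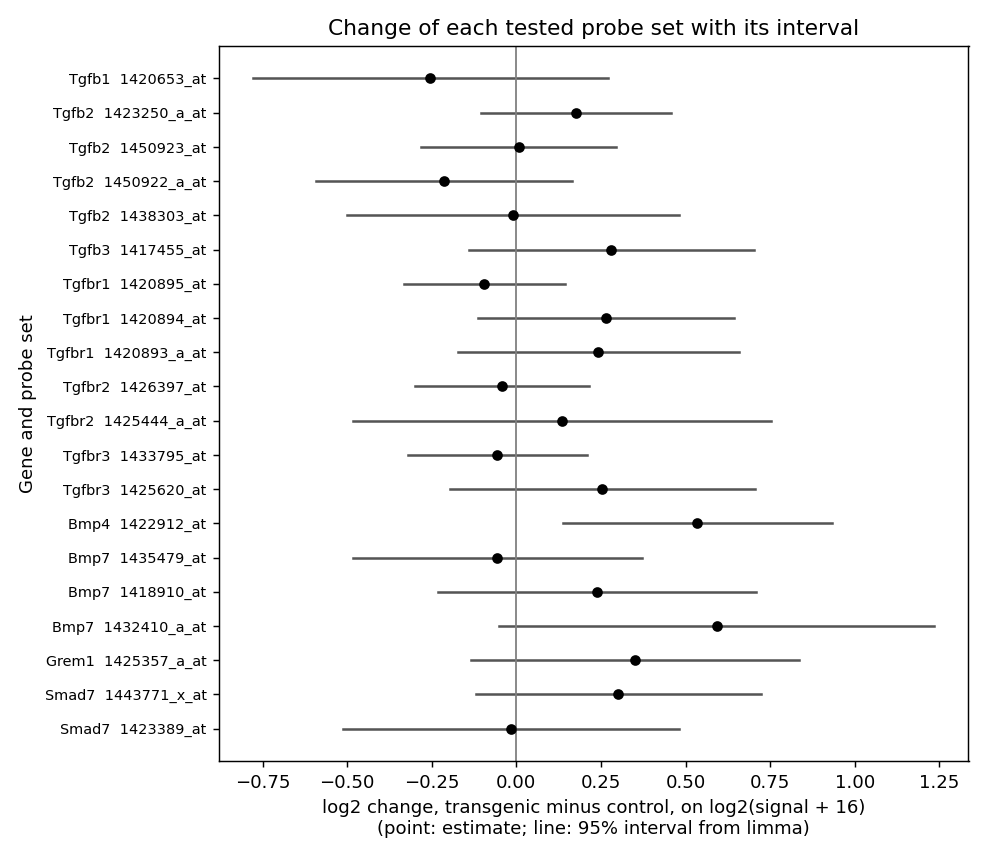
The log2 change (transgenic minus control) of the 20 tested probe sets with its 95% interval from limma. The interval of Bmp4, from 0.14 to 0.93, is the one that does not contain 0; it is not corrected for the number of probe sets tested.

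Among the TGF-beta ligands, signals of Tgfb1 were lower and those of Tgfb3 higher on both transgenic arrays, and Tgfb2 showed no common direction. Tgfb1, the isoform best known from immune regulation and scarring, had signals of 83.5 and 82.7 on the transgenic arrays, against 102 and 102 on the control arrays. The groups did not overlap, and the change was −0.25 with a 95% interval from −0.78 to 0.27 (limma, adjusted p = 0.909). A second Tgfb1 probe set was dim and untested, at 4.27 and 47.3 on the transgenic arrays and at 32.8 and 30.2 on the control arrays. Its transgenic arrays lay on either side of the control arrays.

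Tgfb2, the isoform of the aqueous humor, had 4 tested probe sets, 3 of them designed from the same sequence record. The brightest, 1423250_a_at, gave 652 and 596 on the transgenic arrays and 599.9 and 505 on the control arrays, a change of 0.18 (95% interval −0.11 to 0.46) that was 0.054 without the second control array and 0.30 without the first. The next, 1450923_at, gave 473 and 483 on the transgenic arrays and 492 and 459.5 on the control arrays. On 1450922_a_at the transgenic arrays stood at 301 and 239 and the control arrays at 325 and 304, a change of −0.21 (95% interval −0.59 to 0.16). Only on this last probe set did the groups not overlap. The fourth, 1438303_at, gave 108 and 137 on the transgenic arrays and 125 and 119.6 on the control arrays. Averaged over its 4 probe sets, the change of Tgfb2 was −0.01.

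Tgfb3, an isoform known for its part in palate fusion and wound repair, had 1 probe set, at 175 and 161 on the transgenic arrays and at 131 and 139 on the control arrays. Both transgenic arrays were above both control arrays, by a change of 0.28 (95% interval −0.14 to 0.70; limma, adjusted p = 0.843).

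The brightest probe sets of the 3 receptor genes stood between −0.09 and −0.04 on the log2 scale and the dimmer ones that were tested between 0.13 and 0.27. For Tgfbr1, the type I receptor kinase, 3 probe sets from the same sequence record disagreed. The brightest, 1420895_at, gave 1182 and 1162 on the transgenic arrays and 1254 and 1251 on the control arrays, so that both transgenic arrays were lower, by −0.09 (95% interval −0.33 to 0.14). On 1420894_at both transgenic arrays were higher, with 231 and 273, against 207 and 206 on the control arrays, a change of 0.27 (95% interval −0.11 to 0.64). On 1420893_a_at the transgenic arrays gave 165 and 166 and the control arrays 121 and 156, a change of 0.24 that was 0.076 without the first control array and 0.41 without the second. The direction of Tgfbr1 thus depends on the probe set, and its mean over the 3 was 0.14.

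Tgfbr2, the type II receptor that binds the ligand first, gave 821 and 782 on the transgenic arrays and 815 and 836 on the control arrays on its brightest probe set, a change of −0.04 (95% interval −0.30 to 0.22). These groups overlapped. A dimmer tested probe set gave 69.8 and 60.1 on the transgenic arrays and 56.2 and 59.1 on the control arrays, a change of 0.13. Another lay under the filter, at 1.08 and 19.8 on the transgenic arrays and at 7.94 and 12.2 on the control arrays. Tgfbr3 encodes betaglycan, the co-receptor that presents TGF-beta2 to the signalling receptors. Its brighter probe set gave 866 and 788 on the transgenic arrays and 914 and 807 on the control arrays, an overlap with a change of −0.06 (95% interval −0.32 to 0.21). On its other probe set the transgenic arrays, at 144 and 178, lay above the control arrays, at 138 and 125, with a change of 0.25 (95% interval −0.20 to 0.70). For the brightest probe sets of these 3 receptor genes the intervals run from −0.33 at the lowest to 0.22 at the highest. Intervals of their dimmer tested probe sets reach 0.66 for Tgfbr1 1420893_a_at, 0.75 for Tgfbr2 and 0.70 for Tgfbr3. Larger changes of these genes are therefore not excluded.

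Bmp4 gave the lowest p-value of the 10 genes. This BMP ligand, which acts in lens induction and in the development of the ciliary body and outflow tract, had signals of 404 and 302 on the transgenic arrays, against 269 and 208 on the control arrays. Both transgenic arrays were higher, but the lower transgenic array and the higher control array were closer to each other than the arrays within either group. The mean was 353 ± 72.0 in transgenic samples (SD, n = 2) and 238 in the control sample, a ratio of 1.48. The log2 change was 0.54 ± 0.18 (SE; 95% interval 0.14 to 0.93), with an unadjusted p of 0.0126 and an adjusted p of 0.534 in limma. Without the first control array it was 0.71 and without the second 0.36, and with transgenic array 1 or 2 left out it was 0.33 or 0.74.

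Bmp7, a BMP ligand needed for lens and eye formation, had 3 probe sets. The brightest, 1435479_at, gave 146 and 170.5 on the transgenic arrays and 164 and 165 on the control arrays, an overlap with a change of −0.06 (95% interval −0.48 to 0.37). On 1418910_at the transgenic arrays gave 137 and 121 and the control arrays 105 and 108, a change of 0.24. On 1432410_a_at they gave 69.5 and 108, against 49.5 and 55.0 on the control arrays, a change of 0.59 ± 0.29 (SE; 95% interval −0.05 to 1.24; limma, adjusted p = 0.747). Without transgenic array 1 this change was 0.86 and without transgenic array 2 it was 0.33. The last 2 probe sets had both transgenic arrays above both control arrays, while the brightest did not.

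Grem1 encodes gremlin, which binds BMP2, BMP4 and BMP7 and blocks them. Its probe set gave 117 and 139.5 on the transgenic arrays, against 96.3 and 96.8 on the control arrays. Both transgenic arrays were higher, by a change of 0.35 (95% interval −0.13 to 0.84; limma, adjusted p = 0.822), so the ligand Bmp4 and its antagonist Grem1 stood on the same side of control, each without passing the test.

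Smad7, the inhibitory Smad that TGF-beta and BMP signals induce and that limits both, had 2 probe sets that differed. On 1443771_x_at the transgenic arrays gave 174 and 161 and the control arrays 138 and 128, without overlap, a change of 0.30 (95% interval −0.12 to 0.72; limma, adjusted p = 0.825). The suffix of this probe set marks probes that can bind other transcripts. On 1423389_at, without that suffix, the transgenic arrays gave 99.9 and 121 and the control arrays 104 and 119.6, an overlap with a change of −0.02 (95% interval −0.51 to 0.48). The direction of this second change turned with the scaling, to 0.02 after quantile normalization.

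The other genes of the pathway did not pass the test either. Of 85 further genes with a probe set, 65 had a tested probe set, each gene taken by its brightest, and 0 were called in limma at an adjusted p under 0.05. At an unadjusted p under 0.05, 9 of 65 (13.8%) were higher and 3 (4.62%) lower, beside 4.14% and 2.92% of all probe sets tested. Of the 65, 37 (56.9%) were above 0, with a median change of 0.04, beside 46.9% of all probe sets tested. Both transgenic arrays lay above both control arrays for 20 (30.8%) and below for 11 (16.9%), beside 21.1% and 23.6% of all probe sets tested.

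**Figure D3:**
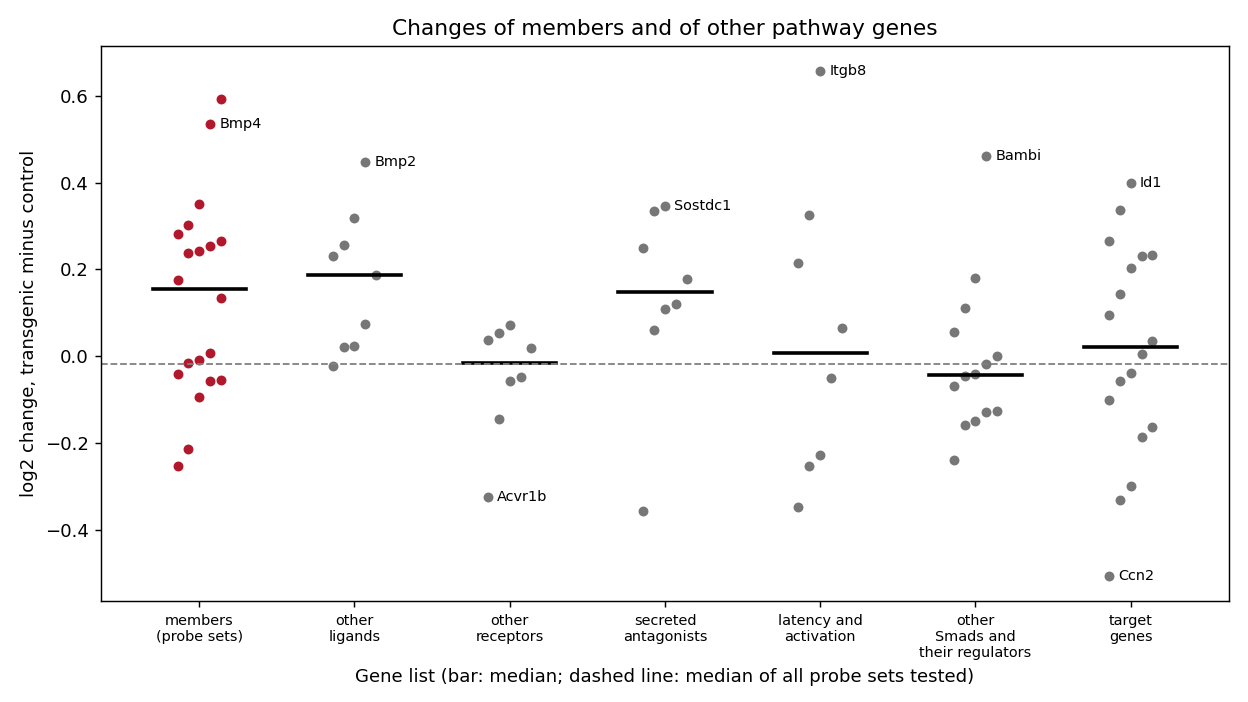
The log2 change (transgenic minus control) of the 20 tested probe sets of the 10 genes and of the 65 other pathway genes by list, 1 point per probe set; bars are medians and the dashed line is the median of all probe sets tested, −0.02. Itgb8 stands highest at 0.66 and Ccn2 lowest at −0.51.

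Of 9 other ligands tested, 8 were above 0, with a median of 0.19. Bmp2, a ligand closely related to Bmp4, had signals of 309 and 279 on the transgenic arrays, against 219 and 203 on the control arrays, a change of 0.45 ± 0.16 (SE; limma, unadjusted p = 0.0172, adjusted p = 0.577). Its transgenic arrays were both higher. Gdf9 at 0.32 and Bmp6 at 0.26 followed with wider errors (SE 0.32 and 0.27); Gdf9 stood at 0.13 without the second control array and Bmp6 at 0.15 without the first. Of 8 other receptors, 4 were above 0, with a median of −0.02. Acvr1b, the activin type I receptor, was lower on both transgenic arrays, at 352 and 350.4, against 504 and 391 on the control arrays, a change of −0.32 that was −0.15 without the first control array and −0.50 without the second. Bmpr2, the BMP type II receptor, stood at −0.14 on its brightest probe set and at −0.06 and 0.16 on the others. Acvrl1 stood at 0.07 and, on a dimmer probe set, at 0.47.

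Of 8 secreted antagonists tested, 7 were above 0, with a median of 0.15. Sostdc1, which binds BMPs, gave 407 and 354 on the transgenic arrays and 282 and 308 on the control arrays, a change of 0.35 ± 0.15, and 0.53 ± 0.23 (SE) on its other probe set. Both of its probe sets had both transgenic arrays higher. Bmper, a BMP-binding regulator, stood at 0.33, and Fstl3, a follistatin-like activin antagonist, at −0.36 with overlapping groups; leaving out the first control array moved these values to 0.16 and −0.13.

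Genes of latency and activation held the change closest to the threshold. Itgb8 encodes the beta subunit of integrin alphavbeta8, which releases active TGF-beta from its latent complex. Its signals were 1897 and 1788 on the transgenic arrays and 1190 and 1136 on the control arrays, far apart relative to the gaps within either group. The change was 0.66 ± 0.11 (SE; 95% interval 0.42 to 0.89), with an adjusted p of 0.0683 in limma. The gene passed in 5 of 12 tests under other settings, and the adjusted p ran from 9.10e-08 to 0.999 over all 12. The tests passed include those with the 4 arrays as separate samples, which treat technical replicates as samples. Itgav, the partner alpha subunit, was lower on both transgenic arrays, at 1910 and 1711, against 2189 and 2049 on the control arrays, a change of −0.23 (95% interval −0.47 to 0.01); it was singled out after its values were seen. Ltbp3, which encodes a latent TGF-beta binding protein, had probe sets that went opposite ways, at 0.32 ± 0.13 on the brighter and −0.47 ± 0.16 (SE) on the other. Ltbp4, of the same family, stood at −0.35 ± 0.19.

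Of 14 other Smads and Smad regulators tested, 4 were above 0, with a median of −0.04. Bambi, which encodes a pseudoreceptor that dampens TGF-beta and BMP signals, gave 269 and 249.5 on the transgenic arrays and 170.0 and 199 on the control arrays, a change of 0.46 ± 0.17 (SE; limma, unadjusted p = 0.0173, adjusted p = 0.578). Both transgenic arrays were higher. Tgif1, a repressor that binds Smads, stood at −0.24 with overlapping groups. Pmepa1, a TGF-beta-induced inhibitor, stood at 0.18 on its brightest probe set and at −0.12 and −0.62 on the others.

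Target genes went both ways, 10 of 18 above 0 with a median of 0.02. Id1 and Id3, transcriptional inhibitors that BMPs induce, were higher on both transgenic arrays. Id1 gave 899.9 and 1047 on the transgenic arrays, against 646 and 829 on the control arrays, a change of 0.40 ± 0.13 (SE), which was 0.22 without the first control array and 0.58 without the second. Id3, whose promoter is shown above, gave 1439 and 1352 on the transgenic arrays and 1088 and 1113 on the control arrays, a change of 0.34 ± 0.11. The Id genes did not all differ: Id2 stood at 0.006 with overlapping groups. Id4 stood at 0.23 with both transgenic arrays higher (95% interval −0.09 to 0.56). Ccn2, which encodes connective tissue growth factor, a target of TGF-beta and of YAP, was lower on both transgenic arrays, at 1597 and 1554, against 2324 and 2168 on the control arrays. Its change was −0.51 ± 0.10 (SE; 95% interval −0.73 to −0.28), with an adjusted p of 0.217 in limma. Ccn2 passed in 4 of 12 tests under other settings, which again include those with the 4 arrays as separate samples. The other target genes with an unadjusted p under 0.05 were Tgfbi, a matrix protein gene, at −0.30, Tagln, an actin-binding protein gene of smooth muscle, at 0.27, and the matrix gene Postn at 0.23, named after their values were seen.

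**Figure D4:**
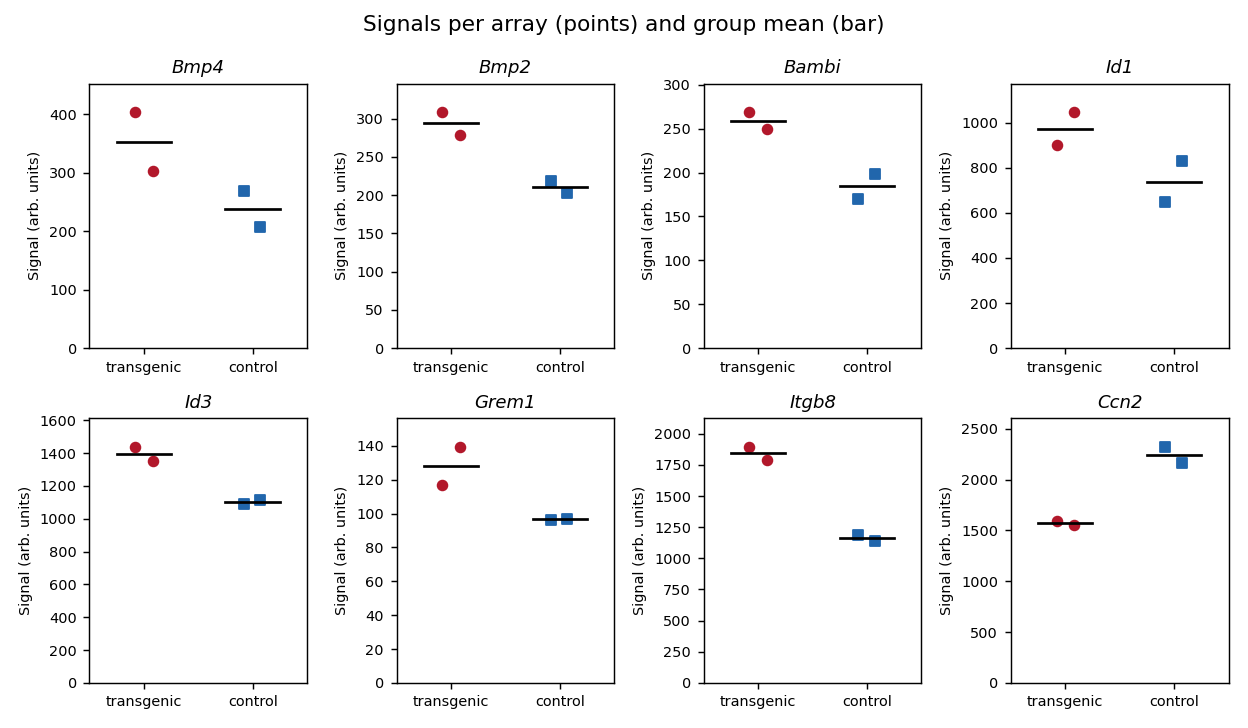
Signal (arbitrary units, axis from 0) of 8 pathway genes on the 2 transgenic arrays (circles, left) and the 2 control arrays (squares, right), with the mean of each group as a bar. The 8 genes were chosen with their values known. Both transgenic arrays lie above both control arrays for Bmp4, Bmp2, Bambi, Id1, Id3, Grem1 and Itgb8 and below them for Ccn2. Of all probe sets tested, 21.1% had both transgenic arrays above and 23.6% below. None of the 8 passed the adjusted threshold.

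Markers of several tissues also differed between the groups. The summed signal of 6 skeletal muscle markers was between 14930 and 15177 on the transgenic arrays, against 8843 to 9375 on the control arrays. All 6 genes were higher on both transgenic arrays and 2 were called, Myl1 and Mylpf. Of all probe sets tested, 21.1% had both transgenic arrays above both control arrays, and 0.0777% were called in either direction. The 5 corneal stroma markers summed to between 25870 and 26625 on the transgenic arrays and to between 19565 and 20474 on the control arrays. All 5 were higher on both transgenic arrays and 1 was called, Kera. Sums for 7 pigment epithelium and melanocyte markers were 35555 to 38444 on the transgenic arrays and 31282 to 31345 on the control arrays. All 7 were higher on both transgenic arrays and 1 was called, Rpe65. For 6 lens markers the sums were 441.0 to 441.4 on the transgenic arrays and 92.8 to 128 on the control arrays. Of these, 4 were tested, all with both transgenic arrays higher, and 3 were called higher, Cryaa, Cryba1 and Crygb. Their control means, 13.6, 25.9 and 19.2, lay under the filter level of about 30.0. These 3 were thus tested only because of their signals on the transgenic arrays. Mip and Bfsp1 lay under the filter, with overlapping groups. Corneal epithelium markers summed to between 35985 and 39011 on the transgenic arrays and to between 34296 and 34759 on the control arrays. Of the 4, 3 were higher on both transgenic arrays and 0 were called. Sums for 5 vascular endothelium markers were 339 to 342 on the transgenic arrays and 346 to 422 on the control arrays, with 0 of 4 tested called. Tie1 lay under the filter. Rod markers summed to between 156 and 195 on the transgenic arrays and to between 205 and 215 on the control arrays. Only Sag of these was tested, and it was not called. No vascular endothelium or rod marker had both transgenic arrays above both control arrays. None of the 5 markers each of fibroblasts, smooth muscle, Mueller glia and macrophages was called in either direction (0 of 5 in each list). Their summed signals on the transgenic arrays were 1.11, 1.14, 1.11 and 1.23 times those on the control arrays, in that order. Above 0 stood 3, 3, 4 and 2 of the 5 genes, and 2, 2, 3 and 2 were higher on both transgenic arrays. The lists share genes and are not separate observations. Rlbp1 counts for both Mueller glia and pigment epithelium, and Acta2, Tagln, Col1a1 and Col1a2 are also target genes of the pathway. Among the macrophage markers Csf1r stood at 0.43 and C1qa at 0.21, while Cd68, Aif1 and Ptprc stood at −0.17, −0.24 and −0.13. In bulk tissue more cells of a type and more RNA per cell cannot be told apart, and the part of these markers in the signals of the TGF-beta and BMP genes was not tested.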

How the data were processed

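Signals of 45101 probe sets on 4 one-colour arrays of mouse eye tissue were used as linear intensities, as deposited by the authors. The software behind them is not given in the sources used here, and the table holds no detection calls. The arrays had equal trimmed means and were not rescaled. Of the probe sets, 64 array controls were left out. Genes were named from the platform annotation, where 34958 probe sets had 1 symbol, 932 several and 9211 none. Where RefSeq held the gene identifier of a probe set with 1 symbol, the RefSeq symbol was used instead. Intensities were taken as log2(signal + 16), and probe sets with a mean above the 40th percentile were tested, which left 27022. The control arrays were averaged as 1 sample. Two-sided tests came from limma 3.58.1 (R 4.3.3), whose eBayes step used an intensity trend, with Benjamini-Hochberg adjustment over all probe sets tested. Degrees of freedom were 1 residual and 10.3 prior, and the single control sample was taken to be as variable as the transgenic ones. The code was tested on simulated data with the same noise in both groups and with changes larger than any of the genes described. That test does not show how the method performs for changes as small as theirs.

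The 10 genes and the pathway and marker lists were chosen with earlier results of these data known. Every probe set of the 10 genes is given. Of each pathway list, genes past the threshold and the 3 with the largest absolute change are named. The alternatives were other scalings, pseudocounts, filters, sample definitions and moderation, the mean over a gene's probe sets and leaving out each array.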

Additional observations from a re-analysis of the deposited data

How the results depend on the processing

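The test of the 10 genes rests on 1 control sample and 1 residual degree of freedom, so a gene that did not pass is not shown to be unchanged. No probe set of these genes was called under 11 of the 12 settings that allow a test. With the 4 arrays as separate samples and the replicate number as a block, 1 was called, that of Bmp4 (adjusted p = 0.00301, against 0.534; it lay between 0.197 and 0.999 in the other 11). The numbers are not known to pair the samples: the correlation of the gap between replicates 1 and 2 across groups was 0.10 over probe sets. That block also gave 1740 calls in all and 12 among the pathway genes, and without the block separate arrays gave 135 and 2, but both treat technical replicates as samples. Of all probe sets, 21 were called, and 39 after quantile normalization, 177 after median centring, and 0 without the filter or without the trend in limma, where 2181 and 1059 had an unadjusted p under 0.05. The count was between 14 and 33 when a control array was left out. Higher calls were 15 of 21, 20 of 39 and 142 of 177 under the 3 scalings. Pathway genes called were 2 after quantile normalization, after median centring and with the mean over a gene's probe sets (Itgb8 and Ccn2), and 1 with robust moderation (Itgb8). The median change of the member probe sets, 0.15, was 0.17 after quantile normalization, 0.18 after median centring, 0.17 and 0.12 at pseudocounts of 1 and 64, 0.071 without the filter, which adds 2 dim probe sets, and 0.091 at the 60th percentile filter, and lay between 0.091 and 0.13 when an array was left out. Of the 20, 14 were above 0 after either of these scalings, against 12. Signs turned for values near 0: Tgfb2 1438303_at to 0.022 after quantile normalization and 0.020 after median centring, and Smad7 1423389_at to 0.018 and 0.014. When an array was left out, Tgfb2 1450923_at ran from −0.041 to 0.056, Tgfb2 1438303_at from −0.16 to 0.15, Bmp7 1435479_at from −0.16 to 0.046, Tgfbr3 1433795_at from −0.14 to 0.032 and Smad7 1423389_at from −0.14 to 0.11. Without changing sign, Tgfb2 1450922_a_at ran from −0.37 to −0.058, Tgfbr1 1420894_at from 0.15 to 0.38 and Tgfbr3 1425620_at from 0.11 to 0.39. The cause of these shifts was not tested.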
